A study of Mus musculus with 15 samples.

Results

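The gene set consisted of 37 genes that neutrophils, the most abundant white cells of bone marrow, use to build their granules and to mature. They were picked by symbol and were set against all 55335 gene IDs of the expression table. All 37 were found in it. RNA had been sequenced from the tibial subchondral bone, the bone under the joint cartilage, of male C57BL/6J mice in 3 groups of 5. Knockout DMM mice carried Dmp1-Cre and floxed Pvalb alleles (Dmp1-Cre;Pvalb fl/fl), a conditional knockout of parvalbumin aimed at osteocytes, and were operated on for DMM (destabilization of the medial meniscus), a model of osteoarthritis made by cutting the medial meniscotibial ligament. Wild-type DMM mice had the same operation, and sham wild-type mice had the joint capsule opened with the ligament left whole. All mice were 8 weeks old at the operation, and the bone was collected after another 8 weeks. Dmp1-Cre is a driver used for osteocytes, knockout mice with a sham operation were not analysed here, and the labels do not say whether marrow was removed from the bone.

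Neutrophils are made in the marrow from progenitors that pass through promyelocyte, myelocyte and band stages. Each stage fills its own granules. Primary (azurophil) granules with serine proteases and myeloperoxidase form first, secondary (specific) and tertiary granules with antimicrobial and iron-binding proteins and matrix proteases follow, and receptors for chemokines and formyl peptides mark mature cells. The genes were placed in 6 classes, of which the primary, the secondary and tertiary and the mature class were named after that order. The mature class also holds genes that are not receptors, such as S100a8 and S100a9. The stage at which each gene is expressed was not measured. The primary granule class had 5 genes (Elane, Mpo, Prtn3, Ctsg, Ms4a3) and the secondary and tertiary granule class 10 (Camp, Ltf, Ngp, Lcn2, Mmp8, Chil3, Fcnb, Pglyrp1, Hp, Cd177). The differentiation class had 6 (Cebpe, Ly6g, Itgb2l, Ifitm6, Wfdc21, Padi4) and the mature neutrophil class 10 (S100a8, S100a9, Retnlg, Cxcr2, Csf3r, Mmp25, Fpr1, Fpr2, Il1r2, G0s2). The last 2 classes were 4 subunits of the NADPH oxidase (Cybb, Cyba, Ncf1, Ncf4) and 2 genes shared with other myeloid cells (Lyz2, Anxa1).

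The regulatory sequence just upstream of 6 of these genes is shown first. The 6 come from the early, middle and late classes, and a link between these sequences and the expression values was not tested. C/EBP factors, with C/EBP-epsilon in the secondary granule stage, and PU.1 are known activators of granule genes. The lines below give the 250 bases before the RefSeq start of each gene (build GRCm38.p6), with matches to TTGCNNAA (C/EBP) or GAGGAAG (PU.1) on either strand in capitals. Elane is at chr10:79886062-79886311, plus strand, Mpo at chr11:87793534-87793783, plus strand, Ltf at chr9:111019042-111019291, plus strand and Ngp at chr9:110419558-110419807, plus strand. S100a8 is at chr3:90668821-90669070, plus strand, and S100a9 at chr3:90695722-90695971, minus strand.
Elane: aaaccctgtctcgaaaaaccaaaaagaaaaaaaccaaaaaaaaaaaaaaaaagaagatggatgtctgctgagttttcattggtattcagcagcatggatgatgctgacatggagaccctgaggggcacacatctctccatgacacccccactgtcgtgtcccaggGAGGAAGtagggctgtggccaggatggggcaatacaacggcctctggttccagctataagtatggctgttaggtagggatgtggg
Mpo: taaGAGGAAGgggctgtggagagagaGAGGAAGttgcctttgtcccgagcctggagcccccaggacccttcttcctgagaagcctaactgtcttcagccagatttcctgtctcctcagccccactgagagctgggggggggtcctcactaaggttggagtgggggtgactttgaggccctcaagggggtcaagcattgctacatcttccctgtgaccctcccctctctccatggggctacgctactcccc
Ltf: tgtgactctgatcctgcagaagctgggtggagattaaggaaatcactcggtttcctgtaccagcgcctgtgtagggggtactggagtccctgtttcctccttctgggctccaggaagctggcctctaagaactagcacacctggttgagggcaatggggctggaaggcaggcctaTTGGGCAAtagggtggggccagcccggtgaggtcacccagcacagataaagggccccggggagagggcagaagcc
Ngp: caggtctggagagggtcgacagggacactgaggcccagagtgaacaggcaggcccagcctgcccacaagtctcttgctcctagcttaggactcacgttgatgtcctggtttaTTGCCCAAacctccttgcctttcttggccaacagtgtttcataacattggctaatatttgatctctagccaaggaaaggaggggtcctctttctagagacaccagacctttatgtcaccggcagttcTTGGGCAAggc
S100a8: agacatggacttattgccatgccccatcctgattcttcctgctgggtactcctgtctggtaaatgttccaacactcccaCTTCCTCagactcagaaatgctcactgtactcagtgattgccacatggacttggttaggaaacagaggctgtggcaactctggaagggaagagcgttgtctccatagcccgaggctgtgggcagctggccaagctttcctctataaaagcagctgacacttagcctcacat
S100a9: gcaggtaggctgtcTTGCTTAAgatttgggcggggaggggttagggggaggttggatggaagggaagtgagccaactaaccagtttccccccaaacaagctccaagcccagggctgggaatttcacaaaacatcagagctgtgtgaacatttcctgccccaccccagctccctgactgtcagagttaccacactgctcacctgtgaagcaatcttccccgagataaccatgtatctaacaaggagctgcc

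Elane and Mpo, of the primary granules, held the PU.1 letters and no C/EBP match, whereas Ltf and Ngp, of the secondary granules, held C/EBP matches and no PU.1 match. Other secondary and tertiary granule genes differed: Lcn2 and Mmp8 held both motifs, Pglyrp1 only the PU.1 letters, and Camp, Chil3 and Cd177 neither. Over the 34 windows available for 33 of the 37 genes, 13 (38.2%) held GAGGAAG, against 10.6% of 32851 promoter windows of the genome. The windows of Ly6g overlap and share the same GAGGAAG match, so that by gene 12 of 33 held it. Of the same windows, 9 (26.5%) held TTGCNNAA, against 9.56% of all. The RUNX letters TGTGGT were in 5 (14.7%), against 14.0% of all. By class, GAGGAAG was upstream of 4 of 5 primary granule genes (Ctsg, Elane, Mpo, Prtn3), 3 of 9 secondary and tertiary granule genes and 3 of 10 mature genes. TTGCNNAA was upstream of 0 of 5 primary granule genes, 5 of 9 secondary and tertiary granule genes (Fcnb, Lcn2, Ltf, Mmp8, Ngp) and 2 of 10 mature genes (Retnlg, S100a9). No match of one motif overlapped a match of another. These are matches of letters, not binding sites, and a window without a match says nothing about the factor.

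Expression values were FPKM, fragments scaled to transcript length and to the size of the library, as deposited by the authors. They summed to between 375453 and 468423 per library, and since the table held no counts the depth of each library was unknown. Every one of the 37 genes had at least 1 FPKM in all 15 libraries, with 5.07 FPKM as the lowest value and 21919 FPKM as the highest. The bone genes Bglap (319 to 904 FPKM), Dmp1 (21.4 to 99.6 FPKM) and Sost (12.6 to 35.8 FPKM), which osteoblasts and osteocytes express, were present in every library. The targeted gene Pvalb, which fast muscle also expresses, was present in every knockout library, at 23.7 to 166 FPKM in knockout DMM, 33.0 to 375 FPKM in wild-type DMM and 15.8 to 490 FPKM in sham wild-type bones, and these ranges overlapped. The summed FPKM of 14 fast muscle genes ran from 510 to 3115 in knockout DMM, from 264 to 2545 in wild-type DMM and from 123 to 4597 in sham wild-type bones. Knockout DMM replicates 1 and 4 and wild-type DMM replicate 3 stood apart from the other 12 libraries. The median differences of the 37 genes between groups are given with and without them.

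Neutrophil transcripts made up a large part of the RNA of this bone. The 37 genes held 17.4, 8.24, 7.62, 8.32 and 6.52% of all FPKM in knockout DMM replicates 1 to 5, 5.53, 7.42, 10.8, 10.3 and 8.57% in wild-type DMM replicates and 8.60, 7.49, 9.31, 8.75 and 7.86% in sham wild-type replicates. The sham wild-type values lay close together, and the widest spread was in knockout DMM, where replicate 1 held more than any other library. S100a8 and S100a9 alone held 2.83 to 7.83% in knockout DMM, 2.28 to 4.77% in wild-type DMM and 3.24 to 4.22% in sham wild-type bones. Of the 10 most abundant transcripts of a library, between 1 and 5 (median 3) were members of the set, and of the 50 most abundant, between 8 and 12. In knockout DMM replicate 1 the most abundant transcript was S100a9. In the other 14 libraries it was a haemoglobin gene, Hbb-bs in wild-type DMM replicate 1 and Hba-a1 in the rest. In bulk bone, fewer cells of a type and less RNA per cell cannot be told apart.

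**Figure D1:**
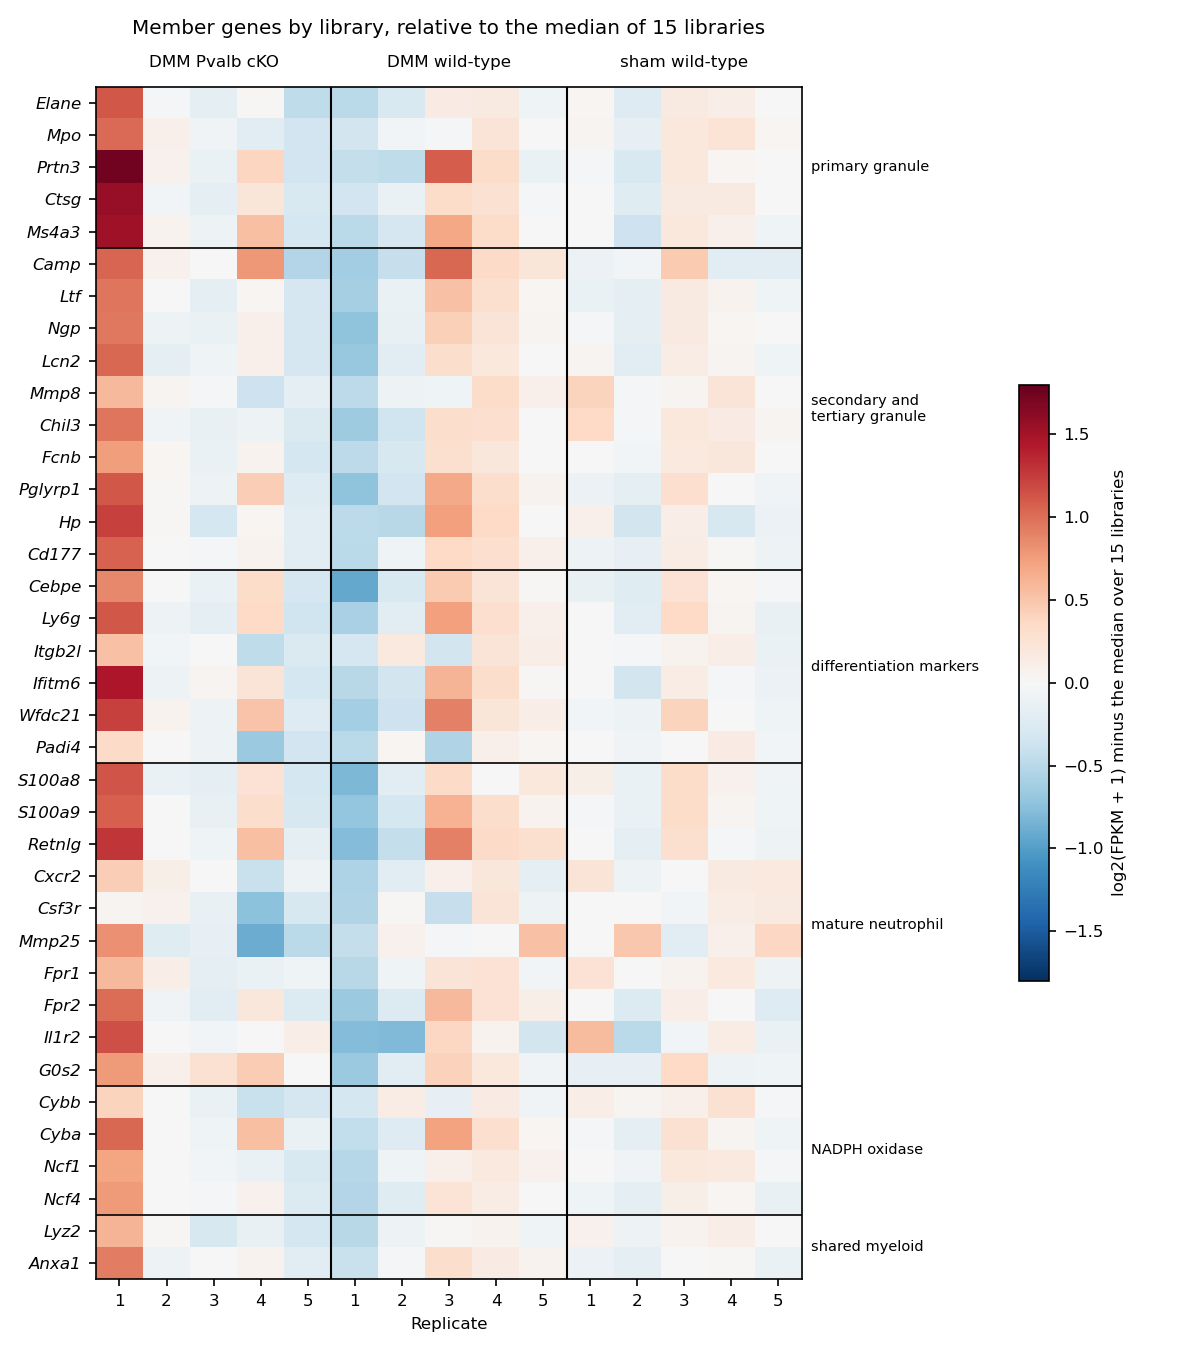
Heat map of the 37 genes (rows, grouped by class) in 15 libraries (columns, 5 replicates for each of knockout DMM, wild-type DMM and sham wild-type bones). Colour is log2(FPKM + 1) minus the gene's median over the 15 libraries, with red above and blue below. Knockout DMM replicate 1 was the highest library for 36 of the 37 genes, and wild-type DMM replicate 1 the lowest for 28.

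Primary granule genes were, on average, lower than the secondary and tertiary granule genes in every library. Elane (ENSMUSG00000020125), which encodes neutrophil elastase, was 1508, 681, 613, 705 and 505 FPKM in knockout DMM replicates 1 to 5, 497, 574, 769, 777 and 659 FPKM in wild-type DMM replicates and 712, 587, 771, 752 and 692 FPKM in sham wild-type replicates. Mpo (ENSMUSG00000009350), which encodes myeloperoxidase, the enzyme that makes hypochlorous acid, was 612, 321, 288, 262 and 236 FPKM in knockout DMM replicates 1 to 5, 238, 292, 296, 355 and 301 FPKM in wild-type DMM replicates and 313, 271, 343, 357 and 308 FPKM in sham wild-type replicates. In both genes knockout DMM replicate 1 stood above the other 14 libraries, the other 4 knockout values lay within the range of the wild-type DMM bones or just beyond it, and the 3 groups overlapped. Elane averaged 802 ± 402 FPKM in knockout DMM, 655 ± 122 FPKM in wild-type DMM and 703 ± 71.95 FPKM in sham wild-type bones (SD, n = 5 each). Mpo averaged 344 ± 153 FPKM in knockout DMM, 296 ± 41.3 FPKM in wild-type DMM and 318 ± 33.8 FPKM in sham wild-type bones (SD, n = 5 each). Among the other 3 members, Prtn3, which encodes proteinase 3, ranged from 138 to 588 FPKM in knockout DMM, 128 to 375 FPKM in wild-type DMM and 145 to 200.3 FPKM in sham wild-type bones. Ctsg (cathepsin G) ranged from 134 to 486 FPKM in knockout DMM, 128 to 205 FPKM in wild-type DMM and 140.4 to 183 FPKM in sham wild-type bones. Ms4a3, a marker of granulocyte and monocyte progenitors, ranged from 47.3 to 172 FPKM in knockout DMM, 41.8 to 95.9 FPKM in wild-type DMM and 45.3 to 67.3 FPKM in sham wild-type bones. In these 3 genes, too, the highest value belonged to knockout DMM replicate 1.

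The secondary and tertiary granule class held several of the most abundant transcripts of the tissue. Camp (ENSMUSG00000038357), which encodes the antimicrobial peptide cathelicidin, was 4979, 2535, 2411, 4149 and 1678 FPKM in knockout DMM replicates 1 to 5, 1562, 1802, 4944, 3067 and 2815 FPKM in wild-type DMM replicates and 2246, 2339, 3357, 2109.9 and 2123 FPKM in sham wild-type replicates. Ngp (ENSMUSG00000032484), a neutrophilic granule protein related to cystatins, was 9662, 4683, 4602, 5327 and 4037 FPKM in knockout DMM replicates 1 to 5, 3011, 4530.0, 6751, 5886 and 5171 FPKM in wild-type DMM replicates and 4923, 4480.2, 5595, 5121 and 4993 FPKM in sham wild-type replicates. Ngp separated knockout DMM replicate 1 from the rest, whereas for Camp wild-type DMM replicate 3 was nearly as high, and in both genes the groups overlapped. Camp averaged 3151 ± 1363 FPKM in knockout DMM, 2838 ± 1341 FPKM in wild-type DMM and 2435 ± 524 FPKM in sham wild-type bones (SD, n = 5 each). Ngp averaged 5662 ± 2282 FPKM in knockout DMM, 5069.8 ± 1417 FPKM in wild-type DMM and 5022 ± 401 FPKM in sham wild-type bones (SD, n = 5 each). Of the other 8 members, Ltf (lactoferrin, which binds iron) ranged from 809 to 1957 FPKM in knockout DMM, 661 to 1435 FPKM in wild-type DMM and 892 to 1122 FPKM in sham wild-type bones, and Lcn2 (lipocalin 2, which binds bacterial siderophores) from 527 to 1319.8 FPKM in knockout DMM, 403 to 806 FPKM in wild-type DMM and 565 to 711 FPKM in sham wild-type bones. Chil3, a chitinase-like protein, ranged from 909 to 2132 FPKM in knockout DMM, 700.1 to 1364 FPKM in wild-type DMM and 1064 to 1400.1 FPKM in sham wild-type bones. Mmp8, the neutrophil collagenase, ranged from 193 to 374 FPKM in knockout DMM, 180.5 to 315 FPKM in wild-type DMM and 247 to 332 FPKM in sham wild-type bones. Each gene of this class was highest in knockout DMM replicate 1. The haptoglobin gene Hp, whose product binds free haemoglobin, ranged from 324 to 949 FPKM in knockout DMM, 285 to 673 FPKM in wild-type DMM and 322 to 437 FPKM in sham wild-type bones, and Cd177, a surface protein of neutrophils, from 221 to 529 FPKM in knockout DMM, 180.3 to 324 FPKM in wild-type DMM and 229 to 279 FPKM in sham wild-type bones. Pglyrp1, a peptidoglycan recognition protein, ranged from 132 to 336 FPKM in knockout DMM, 93.4 to 251 FPKM in wild-type DMM and 138 to 192 FPKM in sham wild-type bones, and Fcnb, the lectin ficolin B, from 110.3 to 232 FPKM in knockout DMM, 98.8 to 168 FPKM in wild-type DMM and 133 to 158 FPKM in sham wild-type bones. For Cd177, Pglyrp1 and Fcnb the sham wild-type range lay inside both DMM ranges, and for Hp inside that of wild-type DMM.

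The differentiation class had the lowest mean level of the 6 classes. Ifitm6 (ENSMUSG00000059108), an interferon-induced transmembrane family member, was 784, 266, 295, 335 and 228 FPKM in knockout DMM replicates 1 to 5, 202, 226, 436, 353 and 290.1 FPKM in wild-type DMM replicates and 285, 225, 311, 276 and 265 FPKM in sham wild-type replicates. Wfdc21 (ENSMUSG00000051748), a protein with a WAP domain, was 527, 235, 211, 323 and 191 FPKM in knockout DMM replicates 1 to 5, 148, 174, 424, 262 and 245 FPKM in wild-type DMM replicates and 218, 212, 298, 225 and 214 FPKM in sham wild-type replicates. Padi4 (ENSMUSG00000025330), the arginine deiminase that modifies histones when neutrophils release their chromatin, was 39.2, 30.8, 28.9, 19.1 and 24.02 FPKM in knockout DMM replicates 1 to 5, 21.7, 31.5, 20.8, 32.8 and 31.4 FPKM in wild-type DMM replicates and 30.99, 29.5, 31.00, 34.1 and 29.8 FPKM in sham wild-type replicates. For Ifitm6 and Wfdc21 knockout DMM replicate 1 was the highest library, with wild-type DMM replicate 3 next, while for Padi4 it was again the highest and knockout DMM replicate 4 and wild-type DMM replicates 1 and 3 were the lowest. The groups overlapped in all 3 genes. The transcription factor gene Cebpe ranged from 59.6 to 135 FPKM in knockout DMM, 38.5 to 102 FPKM in wild-type DMM and 63.00 to 87.8 FPKM in sham wild-type bones. Ly6g, the surface antigen by which mouse neutrophils are sorted, ranged from 69.6 to 195 FPKM in knockout DMM, 58.9 to 150.1 FPKM in wild-type DMM and 77.9 to 115 FPKM in sham wild-type bones. Itgb2l, an integrin beta chain, ranged from 26.4 to 53.3 FPKM in knockout DMM, 28.99 to 43.2 FPKM in wild-type DMM and 33.5 to 40.04 FPKM in sham wild-type bones.

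In the mature neutrophil class levels differed most between genes. S100a8 (ENSMUSG00000056054) and S100a9 (ENSMUSG00000056071) encode the 2 subunits of calprotectin, a calcium and zinc binding protein of the cytosol. S100a8 was 8436, 3541, 3404, 4622 and 3103 FPKM in knockout DMM replicates 1 to 5, 2212, 3403, 4927, 3863 and 4393 FPKM in wild-type DMM replicates and 4139, 3563, 4849, 4070.2 and 3709.5 FPKM in sham wild-type replicates. S100a9 was 21919, 10355, 9411, 12910.1 and 8483 FPKM in knockout DMM replicates 1 to 5, 6418, 8276, 16029, 12899 and 10812 FPKM in wild-type DMM replicates and 10178, 9495, 12989.6, 10722 and 9789 FPKM in sham wild-type replicates. Both genes were highest in knockout DMM replicate 1 and lowest in wild-type DMM replicate 1, and the groups overlapped. S100a9 averaged 12616 ± 5457 FPKM in knockout DMM, 10887 ± 3784 FPKM in wild-type DMM and 10635 ± 1394 FPKM in sham wild-type bones (SD, n = 5 each).

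Receptors of mature cells were far lower than calprotectin. Cxcr2 (ENSMUSG00000026180), the receptor for chemokines that draw neutrophils out of the marrow, was 69.3, 54.4, 50.4, 38.1 and 47.5 FPKM in knockout DMM replicates 1 to 5, 34.2, 44.01, 53.9, 58.6 and 45.2 FPKM in wild-type DMM replicates and 59.5, 47.6, 50.6, 56.5 and 57.1 FPKM in sham wild-type replicates. Csf3r (ENSMUSG00000028859), the receptor for granulocyte colony-stimulating factor, was 134, 136, 118, 77.6 and 106 FPKM in knockout DMM replicates 1 to 5, 88.99, 131, 96.8, 152 and 121 FPKM in wild-type DMM replicates and 130.4, 129.6, 125, 143 and 145 FPKM in sham wild-type replicates. Knockout DMM replicates 1 and 2 were close to each other for Csf3r, which was the only one of the 37 genes whose highest library was not knockout DMM replicate 1 but wild-type DMM replicate 4. Il1r2 (ENSMUSG00000026073), a decoy receptor that binds interleukin 1 without signalling, was 49.6, 21.9, 20.9, 21.7 and 23.6 FPKM in knockout DMM replicates 1 to 5, 12.3, 12.1, 28.4, 22.8 and 17.2 FPKM in wild-type DMM replicates and 32.6, 15.2, 20.9, 24.04 and 19.97 FPKM in sham wild-type replicates. G0s2 (ENSMUSG00000009633), an inhibitor of the lipase that breaks down stored fat, was 36.5, 22.5, 25.5, 29.3 and 21.02 FPKM in knockout DMM replicates 1 to 5, 12.8, 18.2, 28.4, 24.1 and 20.1 FPKM in wild-type DMM replicates and 18.9, 18.9, 27.2, 19.7 and 19.9 FPKM in sham wild-type replicates. In the knockout DMM bones other than replicate 1, Il1r2 lay between 20.9 and 23.6 FPKM, inside the wild-type DMM range, and G0s2 overlapped with wild-type DMM as well. Of the remaining members, Retnlg, a resistin-like secreted protein, ranged from 1066 to 2896 FPKM in knockout DMM, 688 to 2219 FPKM in wild-type DMM and 1047 to 1451 FPKM in sham wild-type bones, and Mmp25, a membrane-bound matrix protease, from 5.07 to 18.96 FPKM in knockout DMM, 7.34 to 15.2 FPKM in wild-type DMM and 8.91 to 14.7 FPKM in sham wild-type bones. The formyl peptide receptor gene Fpr1 ranged from 34.4 to 59.1 FPKM in knockout DMM, 27.3 to 46.9 FPKM in wild-type DMM and 36.8 to 46.9 FPKM in sham wild-type bones, and Fpr2 from 68.2 to 164 FPKM in knockout DMM, 50.7 to 123 FPKM in wild-type DMM and 68.2 to 88.2 FPKM in sham wild-type bones.

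The NADPH oxidase makes superoxide in the phagosome. Its membrane subunits are encoded by Cybb (gp91-phox) and Cyba (p22-phox), and Ncf1 (p47-phox) and Ncf4 (p40-phox) encode cytosolic subunits. Cybb (ENSMUSG00000015340) was 123, 92.96, 85.1, 69.99 and 75.4 FPKM in knockout DMM replicates 1 to 5, 74.3, 102, 83.9, 103 and 89.3 FPKM in wild-type DMM replicates and 101, 95.9, 99.3, 113 and 90.7 FPKM in sham wild-type replicates. Cyba (ENSMUSG00000006519) was 450.3, 220.5, 209, 321 and 202 FPKM in knockout DMM replicates 1 to 5, 162, 188, 364, 272 and 227 FPKM in wild-type DMM replicates and 215, 198, 268, 228 and 209.8 FPKM in sham wild-type replicates. Cybb and Cyba form 1 complex but were not ordered alike across libraries: knockout DMM replicate 4 was the lowest of all for Cybb and the third highest for Cyba. Ncf1 (ENSMUSG00000015950) was 249, 152, 147, 139 and 125 FPKM in knockout DMM replicates 1 to 5, 106, 143, 161, 172 and 161 FPKM in wild-type DMM replicates and 152, 145, 173, 171 and 148 FPKM in sham wild-type replicates. Ncf4 (ENSMUSG00000071715) was 149, 87.4, 84.7, 91.8 and 73.1 FPKM in knockout DMM replicates 1 to 5, 60.4, 74.5, 104, 95.8 and 87.2 FPKM in wild-type DMM replicates and 82.8, 77.1, 93.7, 89.6 and 79.4 FPKM in sham wild-type replicates. Both were highest in knockout DMM replicate 1 and lowest in wild-type DMM replicate 1. Among the genes shared with other myeloid cells, Lyz2 (ENSMUSG00000069516), the lysozyme of neutrophils and macrophages, was 4596, 3058, 2465, 2729 and 2397 FPKM in knockout DMM replicates 1 to 5, 2123, 2825, 3054, 3127 and 2829 FPKM in wild-type DMM replicates and 3154, 2802, 3121, 3247 and 2999 FPKM in sham wild-type replicates. Anxa1 (ENSMUSG00000024659), an annexin that limits neutrophil recruitment, was 383, 189.6, 202, 211 and 175 FPKM in knockout DMM replicates 1 to 5, 153, 198, 250.2, 224 and 210.0 FPKM in wild-type DMM replicates and 187, 178, 203, 205 and 185 FPKM in sham wild-type replicates. In these 2 genes as well replicate 1 of knockout DMM stood above the other 14 libraries and the groups overlapped.

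Some transcripts resemble others closely enough that the authors' counting could split their reads. Chil3 and Chil4 were 94.3% identical over the transcript, Fpr2 and Gm5966 95.7%, and Lyz2 and Lyz1 95.8%, and Csf3r matched AC105061.2 at 96.8% over 43.6% of its length. The copies were low (Lyz1 averaged 4.67 FPKM, against 2968 FPKM for Lyz2), and these 4 genes are to be read with that in mind.

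**Figure D2:**
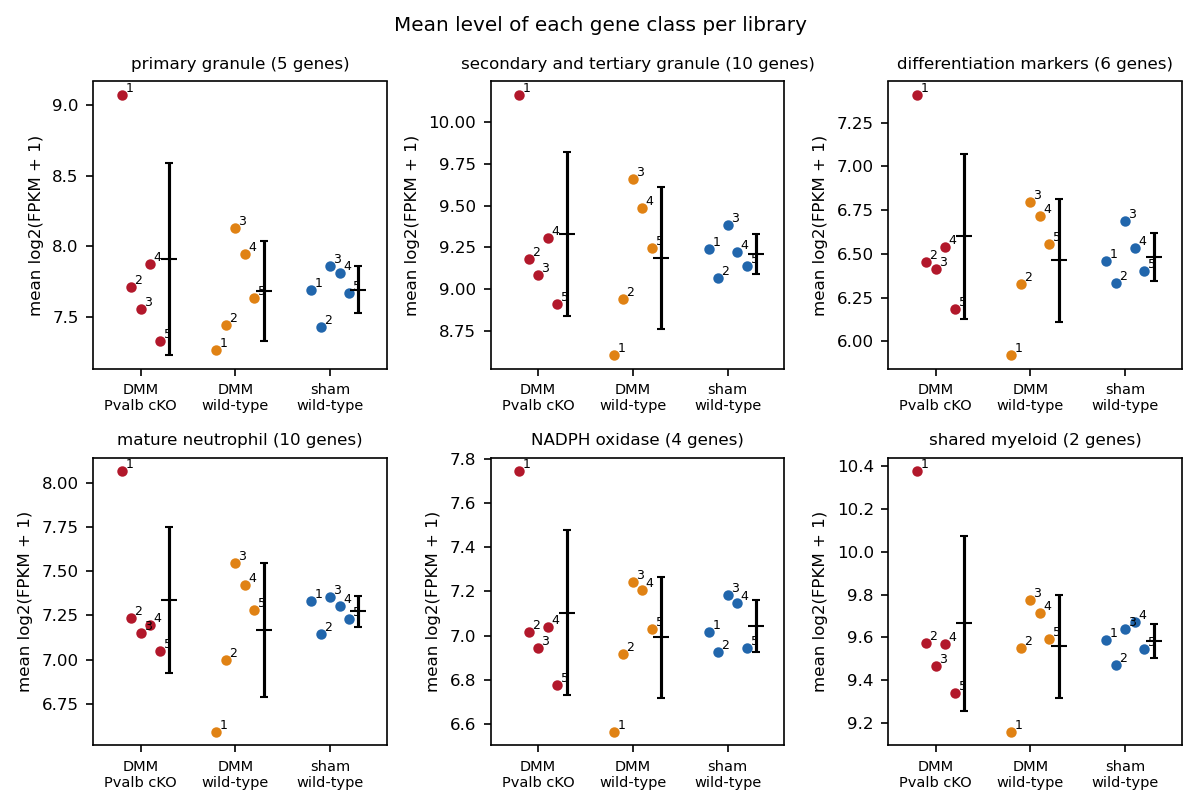
Mean log2(FPKM + 1) of the genes of each class (vertical axis) in every library, for knockout DMM, wild-type DMM and sham wild-type bones from left to right. Small digits are replicate numbers, and the bar beside each group is the mean ± SD of its 5 libraries. In each class knockout DMM replicate 1 is the highest point (9.08 for primary granule genes) and wild-type DMM replicate 1 the lowest (7.26).

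Knockout DMM replicate 1 was higher than the other libraries in every class, and by class median most in the earliest one. It was the highest library for 36 of the 37 genes, against 18.1% of the 13653 genes tested. Relative to the median of the other 14 libraries, the median gene was 2.05-fold higher there, with a range of 1.05-fold (Csf3r) to 3.39-fold (Prtn3). Wild-type DMM replicate 1 was the lowest library for 28 of the 37 genes, against 9.29% of all genes. The class medians were 2.92-fold for primary granule genes, 2.06-fold for secondary and tertiary granule genes, 2.05-fold for differentiation genes, 1.97-fold for mature genes, 1.70-fold for the oxidase and 1.75-fold for the 2 shared genes. On the log2 scale these medians were 1.53, 1.04, 1.02, 0.94, 0.76 and 0.80, and 1.44, 0.98, 0.93, 0.91, 0.75 and 0.76 after each library's trend with transcript length over all genes was removed. In knockout DMM replicate 1 that trend had a slope of -0.0522 log2 units per log2 of length, against -0.202 over the 37 genes. Part of the 37 genes' own trend therefore remained. The primary granule genes were not alike, and Prtn3 (3.39-fold), Ctsg (3.02-fold) and Ms4a3 (2.92-fold) set their median apart. Elane (2.20-fold) and Mpo (2.05-fold) lay below Ifitm6 (2.79-fold), Retnlg (2.46-fold) and Hp (2.44-fold) of other classes. The mean level of primary granule genes minus that of mature genes was 1.01 log2 units in this library, against 0.28 to 0.68 in the other 14. The same difference between primary and secondary granule genes was -1.09, against -1.64 to -1.34. Other cell types moved in it as well. The summed FPKM of 11 erythroid genes, none of them at 0 in any library, was 40204 in knockout DMM replicate 1 and 81160 to 144488 in the other knockout DMM bones, 68032 to 102195 in wild-type DMM and 72390 to 107516 in sham wild-type bones. The summed FPKM of 11 B cell genes, none at 0, was 440 in knockout DMM replicate 1 and 647 to 1530 in the other knockout DMM bones, 703 to 853 in wild-type DMM and 680 to 2599 in sham wild-type bones. In contrast, 15 monocyte and macrophage genes summed to 711 FPKM in this library and to 552 to 680 FPKM in the other 14. For 10 T and NK cell genes the sum was 147 FPKM, against 55.9 to 108 FPKM. By mean log2(FPKM + 1) neither list was highest there (4.75 and 2.00, against up to 5.01 and 2.24 elsewhere). The part of these lists in the neutrophil values was not tested.

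In 2 further libraries the set split by transcript length. In knockout DMM replicate 4 the 18 genes shorter than the set's median of 1241 bases were all above the median of 12 other libraries (the 3 libraries that stood apart left out), by 1.34-fold at the median, while the 19 longer ones had a median ratio of 0.936, with 7 above 1 and 12 below. In wild-type DMM replicate 3 the short genes were again all above, by 1.63-fold, and the long ones had a median ratio of 1.07. Across the 37 genes the correlation of the log2 deviation with length was -0.84 in knockout DMM replicate 4 and -0.72 in wild-type DMM replicate 3. That of knockout DMM replicate 1 was -0.58. These are correlations across genes of 1 library, and genes are not independent replicates. The same 2 libraries had the steepest negative trend with length over 13645 genes (slopes of -0.102 and -0.0959 log2 units per log2 of length) and the highest FPKM totals, 468423 and 438984. Cybb (4752 bases) and Cyba (744 bases) lay on either side of the median length, and Csf3r, Padi4, Mmp25 and Itgb2l, all longer than it, were lowest of all libraries in knockout DMM replicate 4. What part length has in the differences between groups was not tested beyond the fit with the trend removed, in which none of the 37 genes passed. That fit removed the trend over all genes. The slope over the 37 genes was steeper, at -0.314 in knockout DMM replicate 4 and -0.272 in wild-type DMM replicate 3, so part of it remained.

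**Figure D3:**
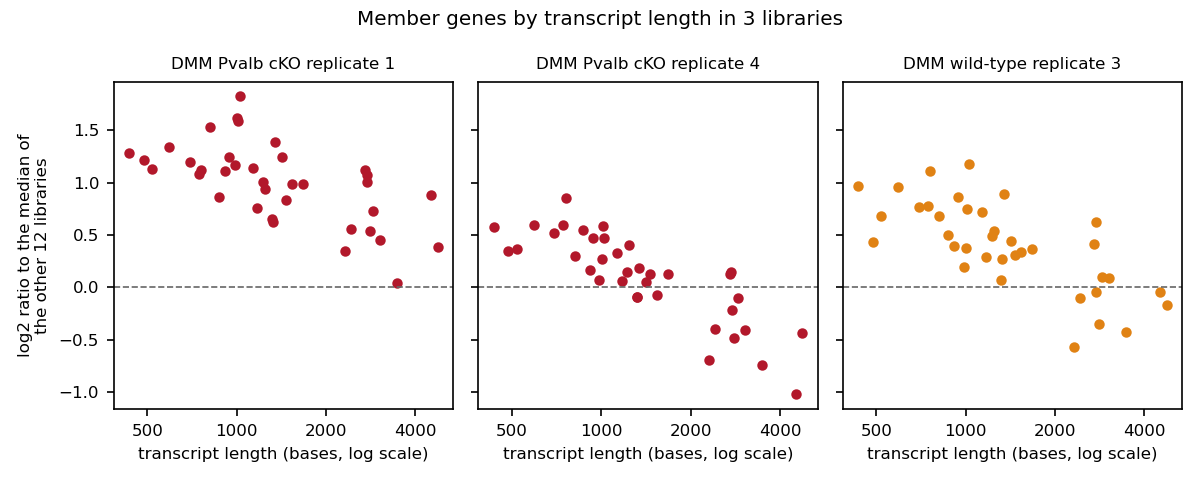
Each of the 37 genes in 3 libraries, with transcript length in bases on the horizontal axis (log scale) and, on the vertical axis, the log2 ratio to the median of the other 12 libraries, with a dashed line at 0. In knockout DMM replicate 1 nearly all genes lie well above 0, whereas in knockout DMM replicate 4 and wild-type DMM replicate 3 short transcripts lie above 0 and long ones near or below it (medians of 1.34-fold and 0.936-fold, and of 1.63-fold and 1.07-fold).

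Some pairs of genes were correlated across libraries and others were not. Over the 15 libraries, 8 pairs were compared on the log2(FPKM + 1) scale, with two-sided permutation p-values from 100000 resamples adjusted over the 8 pairs. Within a class, Ltf and Ngp had r = 0.98 (adjusted permutation p = 2e-05) and rho = 0.96 (p = 4e-05), S100a8 and S100a9 had r = 0.95 (p = 2e-05) and rho = 0.94 (p = 4e-05), and Mpo and Elane had r = 0.95 (p = 2e-05) and rho = 0.81 (p = 0.0009). Before adjustment the permutation p of these 3 r values was 1e-05, the smallest that 100000 resamples can give. Without the 2 libraries farthest from the median of the first gene, r was 0.97, 0.86 and 0.78 for these pairs. Between classes, Ltf and S100a8 had r = 0.93 (adjusted permutation p = 2e-05) and rho = 0.84 (p = 0.00051), Mpo and Ltf r = 0.84 (p = 0.00058) and rho = 0.73 (p = 0.0046), and Mpo and S100a8 r = 0.82 (p = 0.0016) and rho = 0.56 (p = 0.044). Without the 2 farthest libraries r was 0.75, 0.60 and 0.52. S100a8 and the receptor gene Cxcr2 had r = 0.63 (adjusted permutation p = 0.016) and rho = 0.44 (p = 0.12), and r was -0.03 without knockout DMM replicate 1 and wild-type DMM replicate 1, so that this relation rested on those 2 libraries. S100a8 and the muscle gene Ckm had r = -0.16 (adjusted permutation p = 0.58) and rho = -0.22 (p = 0.43), and r = -0.19 without knockout DMM replicate 1 and wild-type DMM replicate 1. Without knockout DMM replicate 1 alone, r was 0.97 for Ltf and Ngp, 0.91 for S100a8 and S100a9, 0.83 for Mpo and Elane, 0.85 for Ltf and S100a8, 0.65 for Mpo and Ltf, 0.57 for Mpo and S100a8 and 0.45 for S100a8 and Cxcr2. The libraries share the split of each total among all transcripts, which can tie 1 gene's FPKM to another's.

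Wild-type DMM bones were compared with sham wild-type bones, which addresses the operation in wild-type mice. None of the 37 passed the threshold (limma on log2(FPKM + 1), Benjamini-Hochberg adjusted p under 0.05 over 13653 genes), where 0% of all genes passed. At an unadjusted p under 0.05 there were 0 of the 37, against 946 (6.93%) of all genes. For none of the 37 did the 2 groups fail to overlap, against 244 (1.79%) of all genes. The log2 difference was above 0 for 14 genes (50.4% of all genes were) and below 0 for 23 (49.6% of all genes), with a median of -0.03 (range -0.30 for Il1r2 to 0.13 for Hp), against a median of 0.00 over all genes. By class the median was -0.01 for primary granule genes, -0.01 for secondary and tertiary granule genes, -0.01 for differentiation genes, -0.12 for mature genes (8 of 10 below 0) and -0.06 for the oxidase. By length, 15 of the 19 longer transcripts were below 0 and 4 above, against 8 below and 10 above among the 18 shorter ones. The smallest p belonged to Cxcr2, with a log2 difference of -0.22 (SE 0.16, 95% interval -0.55 to 0.12; limma adjusted p = 0.917) and a two-sided exact permutation test gave p = 0.167, where 0.00794 is the smallest p that 5 against 5 libraries allow. Csf3r had -0.21 (SE 0.16, 95% interval -0.56 to 0.13; limma adjusted p = 0.917) and Padi4 -0.19 (SE 0.17, 95% interval -0.55 to 0.18; limma adjusted p = 0.917). Over the 37 genes the limma 95% intervals reached from -0.89 to 0.86 at the widest. The direction changed with single libraries, since the median was 0.09 without wild-type DMM replicate 1, 0.01 without sham wild-type replicate 3 and -0.14 without wild-type DMM replicate 3. Without the last of these, which is the one library of this comparison that stood apart, 2 genes were above 0 and 35 below, against a median of 0.02 over all genes. The class medians were then -0.11 for primary granule genes, -0.16 for secondary and tertiary granule genes, -0.10 for differentiation genes, -0.17 for mature genes and -0.11 for the oxidase, and none passed. With 1 library left out, the log2 difference lay between -0.30 and -0.11 for Cxcr2 and between -0.31 and -0.12 for Csf3r, in both without wild-type DMM replicates 4 and 1. For Padi4 it lay between -0.25 without wild-type DMM replicate 4 and -0.10 without wild-type DMM replicate 3. Of the 19 named genes, 0 had an exact permutation p under 0.05 in this or either of the other comparisons.

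Knockout DMM bones were compared with wild-type DMM bones, which addresses the genotype after the same operation. None of the 37 genes passed, against 1 gene (0.00732%) of all 13653, the unnamed locus AC117239.2, given here after its value was seen. At an unadjusted p under 0.05 there were 0 of the 37, against 444 (3.25%) of all genes, and 0 whose groups did not overlap, against 52 (0.381%). The log2 difference was above 0 for 33 genes (89.2%, against 45.1% of all genes) and below 0 for 4 (54.9% of all genes), with a median of 0.14 (range -0.21 for Mmp25 to 0.54 for Il1r2), against -0.02 over all genes. The 4 genes below 0 (Itgb2l, Csf3r, Mmp25, Cybb) were all among the 19 longer transcripts. The split rested on 1 library. Without knockout DMM replicate 1, 9 genes were above 0 and 28 below, with a median of -0.06. Class medians with all libraries were 0.24 for primary granule genes, 0.14 for secondary and tertiary granule genes, 0.17 for differentiation genes, 0.16 for mature genes and 0.14 for the oxidase, and -0.09, -0.07, -0.08, -0.01 and -0.03 without that library. The smallest p belonged to G0s2, with a log2 difference of 0.38 (SE 0.19, 95% interval -0.02 to 0.79; limma adjusted p = 0.935) and a two-sided exact permutation test gave p = 0.135. Il1r2 had the largest difference, 0.54 (SE 0.28, 95% interval -0.05 to 1.13; limma adjusted p = 0.935), with p = 0.159 by the same exact permutation test. Ncf4 had 0.18 (SE 0.18, 95% interval -0.19 to 0.56; limma adjusted p = 0.935). Without knockout DMM replicate 1 the difference was 0.31 for Il1r2 and 0.02 for Ncf4, and without wild-type DMM replicate 1 that of G0s2 was 0.23. Without the 3 libraries that stood apart, 15 genes were above 0 and 22 below, with a median of -0.02. With only knockout DMM replicate 4 and wild-type DMM replicate 3 left out, 35 were above 0 and 2 below (median 0.27), and none passed. The limma intervals of the 37 genes ran from -0.76 to 1.13 at the widest.

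**Figure D4:**
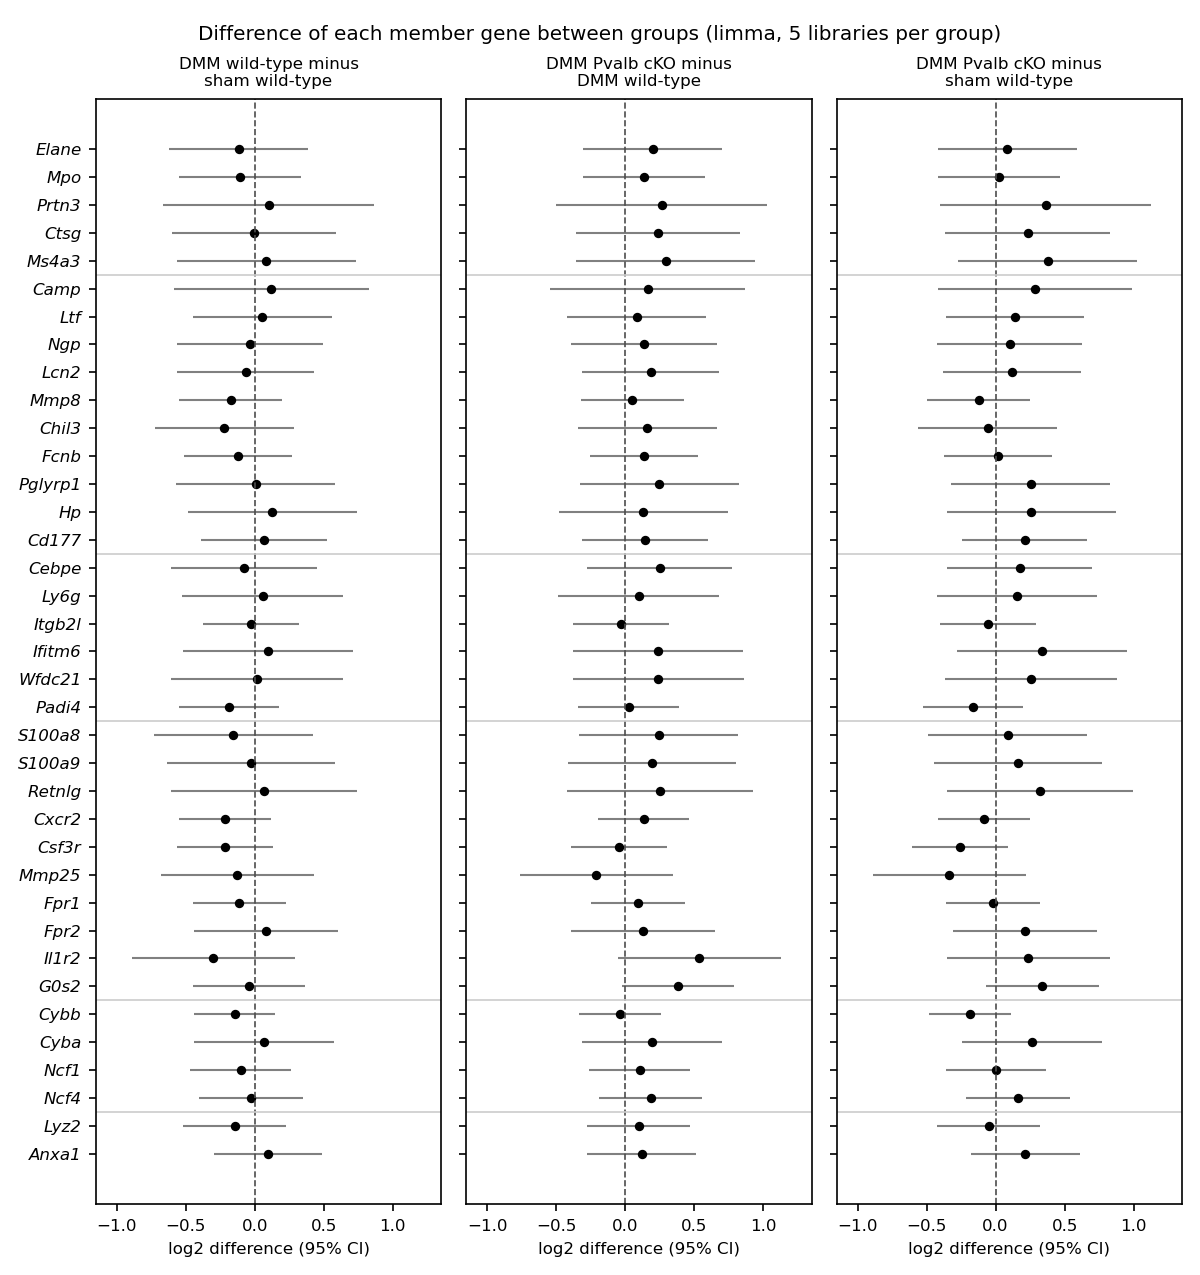
Log2 difference of each of the 37 genes (rows, grouped by class) for wild-type DMM minus sham wild-type, knockout DMM minus wild-type DMM and knockout DMM minus sham wild-type bones, with 5 libraries per group. Points are limma estimates on log2(FPKM + 1), lines their 95% intervals and the dashed line 0. The medians were -0.03, 0.14 and 0.15, and each interval includes 0.

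Knockout DMM bones were also set against sham wild-type bones, a comparison that holds both the operation and the genotype and shares its libraries with the other comparisons. None of the 37 genes passed, against 4 (0.0293%) of all genes, which were AC117239.2, Gm45222, Gm26917 and the cytokine gene Osm, named here after their values were seen. At an unadjusted p under 0.05 there were 0 of the 37, against 1430 (10.5%) of all genes, and 0 whose groups did not overlap, against 308 (2.26%). The log2 difference was above 0 for 27 genes (47.9% of all genes were) and below 0 for 10 (52.1% of all genes), with a median of 0.15 (range -0.33 for Mmp25 to 0.38 for Ms4a3), against -0.01 over all genes. Without knockout DMM replicate 1, 11 were above 0 and 26 below, with a median of -0.08. The smallest p belonged to G0s2, with a log2 difference of 0.34 (SE 0.19, 95% interval -0.07 to 0.75; limma adjusted p = 0.473) and a two-sided exact permutation test gave p = 0.0794. Csf3r had -0.26 (SE 0.16, 95% interval -0.61 to 0.09; limma adjusted p = 0.479) and Cybb -0.18 (SE 0.14, 95% interval -0.48 to 0.11; limma adjusted p = 0.518). Without knockout DMM replicate 4 these were -0.13 for Csf3r and -0.10 for Cybb, and without knockout DMM replicate 1 Cybb had -0.31. All 10 genes below 0 were among the 19 longer transcripts, and 0 of the 18 shorter ones were below 0. Without the 3 libraries that stood apart, 2 genes were above 0 and 35 below, with a median of -0.13, and none passed. With only knockout DMM replicate 4 and wild-type DMM replicate 3 left out, 30 were above 0 and 7 below (median 0.13), and none passed.

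Genes that control neutrophil production and traffic were measured beside the set. Of 23 such genes 19 were tested, and of 30 further neutrophil genes 28. None of either list passed in any of the 3 comparisons. Cxcl2, Cebpb, Olfm4, Cxcl5 and Fcgr3 are given because their p-values were among the smallest of these lists. Csf3, the cytokine that drives neutrophil production, was at or under 0.0714 FPKM in every library. Cxcl12, the chemokine that holds neutrophils in the marrow, was at 65.2 to 126 FPKM. The neutrophil chemokine gene Cxcl2 (ENSMUSG00000058427) was 3.08, 4.23, 2.36, 0.483 and 2.84 FPKM in knockout DMM replicates 1 to 5, 1.34, 1.22, 0.997, 1.19 and 1.49 FPKM in wild-type DMM replicates and 0.427, 0.267, 0.34, 0.708 and 0.402 FPKM in sham wild-type replicates. Every wild-type DMM value and 4 of the 5 knockout DMM values lay above the sham wild-type range. All sham wild-type values were under 1 FPKM, so Cxcl2 met the filter (at least 1 FPKM in at least 5 libraries) through DMM libraries alone. The filter thus favoured a gene that was high in DMM bones. The share of 1.79% of all genes whose wild-type DMM and sham wild-type groups did not overlap is therefore no measure for it. On the log2 scale Cxcl2 differed by 0.66 (SE 0.24; limma adjusted p = 0.489) for wild-type DMM against sham wild-type, 0.57 (SE 0.24; adjusted p = 0.935) for knockout DMM against wild-type DMM and 1.23 (SE 0.24; adjusted p = 0.176) for knockout DMM against sham wild-type bones. Cebpb (ENSMUSG00000056501), a C/EBP factor of emergency neutrophil production, was 65.6, 52.9, 36.3, 42.5 and 39.9 FPKM in knockout DMM replicates 1 to 5, 24.5, 21.9, 43.4, 35.5 and 32.3 FPKM in wild-type DMM replicates and 31.2, 27.3, 34.1, 27.7 and 26.8 FPKM in sham wild-type replicates. It differed by 0.58 (SE 0.18; limma adjusted p = 0.935) between knockout DMM and wild-type DMM and by 0.64 (SE 0.18; adjusted p = 0.456) between knockout DMM and sham wild-type bones, and its highest value was again in knockout DMM replicate 1. Olfm4 (ENSMUSG00000022026), a granule glycoprotein of a subset of neutrophils, was 57.8, 42.6, 33.9, 32.8 and 34.4 FPKM in knockout DMM replicates 1 to 5, 19.6, 34.96, 18.98, 25.9 and 29.7 FPKM in wild-type DMM replicates and 34.4, 31.8, 26.3, 37.6 and 23.7 FPKM in sham wild-type replicates. The difference between knockout DMM and wild-type DMM was 0.63 (SE 0.19; limma adjusted p = 0.935), with 1 wild-type DMM replicate above 3 of the knockout values. Cxcl5, a second chemokine, differed by -0.18 (SE 0.08; limma adjusted p = 0.659) between wild-type DMM and sham wild-type bones and by -0.20 (SE 0.08; adjusted p = 0.469) between knockout DMM and sham wild-type bones. The Fc receptor gene Fcgr3 differed by -0.42 (SE 0.20; limma adjusted p = 0.721) between wild-type DMM and sham wild-type bones. None of these differences passed the threshold.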

How the data were processed

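Poly(A) RNA from 15 bones was sequenced as dUTP-marked libraries, per the labels' protocols, which state an RNA integrity number of at least 8. The authors deposited 1 table of FPKM, of which 0 columns were left unmatched to samples. The build is GRCm39, per the submitters' processing notes, which also list STAR 2.7.10a, featureCounts 2.0.3, Trimmomatic 0.39, FastQC 0.11.9, R 4.3.1 and DESeq2 1.42.0. Not given in the sources used here are the tool that made the FPKM values and whether counting used strand. Depth was unknown, as the table held no counts, and no count test was run. No 2 of the libraries (105 pairs) were identical, and the labels call them biological replicates.

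Of 55335 IDs, 13653 with at least 1 FPKM in at least 5 libraries were tested as log2(FPKM + 1). On this scale the change of a low gene is understated. One limma 3.58.1 fit (R 4.3.3) of all 15 libraries, with 3 group means and an intensity trend, gave 3 comparisons. Benjamini-Hochberg adjusted p under 0.05 over all genes was the threshold. The test was checked on simulated data in which genes varied independently and no library stood apart, unlike in these data. Single genes were also tested by exact permutation over all arrangements. The members and lists were chosen with earlier results of these data known. Genes given in every library were the 2 most abundant of each class and the 3 with the smallest p in each comparison. Promoters come from RefSeq (GRCm38.p6), lengths and near copies (BLAST 2.17.0) from an annotation of that other build, matched by gene ID or symbol. Motif windows were the 250 bases before each start. Figures were drawn with matplotlib 3.10.9. Alternatives were a pseudocount of 0.1, other filters and scalings, a replicate block, an erythroid or muscle covariate, robust moderation, a fit of only the 10 libraries compared and each library left out. Those added after seeing the data were leaving out 3 or 2 libraries that stood apart, removing the length trend and array weights.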

Additional observations from a re-analysis of the deposited data

Results flagged for a closer look

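In each group of 5 libraries the gap between an end value and its neighbour was divided by the group's whole range, and values above 0.71 were marked. Of 84 groups of values looked at, 18 were marked, where chance marks about 1 in 20 groups, and 15 of the 18 came from 1 library, knockout DMM replicate 1, so they are not independent of each other. In that library Elane was 1508 FPKM, Mpo 612 FPKM, Ngp 9662 FPKM, Ifitm6 784 FPKM and S100a8 8436 FPKM, each the highest of its group. In the same library Il1r2 was 49.6 FPKM, Ncf1 249 FPKM, Ncf4 149 FPKM and Anxa1 383 FPKM. Its mean log2(FPKM + 1) was 7.41 for differentiation genes, 8.07 for mature neutrophil genes, 7.74 for the oxidase, 10.4 for the shared myeloid genes and 8.75 for all 37 genes, which held 17.4% of its FPKM. The other 3 values were those of Camp (3357 FPKM), Wfdc21 (298 FPKM) and G0s2 (27.2 FPKM) in sham wild-type replicate 3, again each the highest of its group. Primary granule and secondary and tertiary granule class means were not marked in any group.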

How the results depend on the processing

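Members past the threshold stayed at 0 of 37 in all 3 comparisons under each of the 29 alternatives. Of 1653 values of named members under these alternatives, 134 had the opposite sign, and none moved by more than the spread between replicates. The members' median log2 difference lay between -0.14 and 0.09 for wild-type DMM against sham wild-type, -0.10 and 0.27 for knockout DMM against wild-type DMM and -0.14 and 0.25 for knockout DMM against sham wild-type bones. With array weights, which gave knockout DMM replicates 1 and 4 and wild-type DMM replicate 3 the lowest weights, the last 2 medians were -0.10 and -0.14. Over all genes, none was called higher or lower for wild-type DMM against sham wild-type. There 1 was called higher and 1 lower with no filter, 1 higher with FPKM rescaled to 1 common total, 243 higher and 9 lower with a muscle covariate, and 9 higher and 6 lower with array weights. For knockout DMM against wild-type DMM 1 gene was called higher and 0 lower, against 1 lower with no filter and 3 higher and 1 lower with array weights. For knockout DMM against sham wild-type 4 genes were called higher and 0 lower. The number higher was 2 in a fit of the 10 libraries compared, 7 with a muscle covariate, 8 without the 2 libraries with a steep length trend and 13 with array weights. The number lower was 3 with no filter, 1 with FPKM rescaled, 1 with the 10 libraries, 1 with a muscle and 2 with an erythroid covariate, 2 without the 3 libraries that stood apart, 1 without the 2 with a steep length trend, 3 with the length trend removed and 9 with array weights. The cause was not tested. Leaving out 1 library gave 0 to 2 higher and 0 to 1 lower, 1 to 2 higher and 0 lower and 2 to 7 higher and 0 to 1 lower in these comparisons. With the replicate number as a block, 1 gene was called higher for knockout DMM against sham wild-type and no member in any comparison. The numbers do not pair the libraries, since the correlation of same-numbered deviations ran from -0.46 to 0.40 and passed 0.1 in 6 of 15 pairs. Without counts, depth sets no stated limit. With 5 libraries a group, the widest limma interval of a member reached 1.13 log2 units.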

Other observations

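Genes of the other granulocytes were measured in the same bones, and none passed the threshold. All 12 genes of a list for eosinophils, basophils and mast cells had a log2 difference below 0 for wild-type DMM against sham wild-type, with a median of -0.28 against 0.00 over all genes, of which 49.6% were below 0. Lists of other cell types lay on 1 side of 0 in the same comparison, with all 8 fibroblast genes (median 1.16) and all 7 osteoclast genes (median 0.34) above 0 and all 14 fast muscle genes (median -0.81) below 0, none of them past the threshold. Their part in the granulocyte values was not tested. All 12 were also below 0 for knockout DMM against sham wild-type (median -0.27), a comparison that shares the sham libraries. For knockout DMM against wild-type DMM 5 were above 0 and 7 below (median -0.02). The mean log2(FPKM + 1) of the list was 5.05, 5.24, 5.17, 5.35 and 4.55 in knockout DMM replicates 1 to 5. It was 4.48, 4.89, 5.41, 5.44 and 5.21 in wild-type DMM replicates and 5.25 to 5.55 in sham wild-type bones. Knockout DMM replicate 4 and wild-type DMM replicates 3 and 4 thus lay inside the sham wild-type range. Ms4a2, the beta chain of the high-affinity IgE receptor, was 3.12, 1.66, 1.26, 3.96 and 1.14 FPKM in knockout DMM replicates 1 to 5, 1.09, 4.11, 3.82, 1.93 and 1.34 FPKM in wild-type DMM replicates and 6.35, 4.76, 5.57, 5.55 and 4.32 FPKM in sham wild-type replicates. Every DMM value lay below every sham wild-type value. The log2 difference was -0.96 (SE 0.28; limma adjusted p = 0.299) for wild-type DMM and -1.04 (SE 0.28; adjusted p = 0.398) for knockout DMM, each against sham wild-type. Ms4a2 was chosen after its values were seen. The share of all genes whose groups do not overlap was 1.79% and 2.26% in these comparisons. Prg2, the eosinophil granule major basic protein, was 461 to 1313 FPKM in knockout DMM, 399 to 1352 FPKM in wild-type DMM and 832 to 1064 FPKM in sham wild-type bones, with wide overlap.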
